A study of Mus musculus with 12 samples.

Results

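Canonical Wnt target genes are genes that β-catenin and its TCF/LEF partners switch on in many tissues, and 10 of them were followed through the adult mouse retina: Axin2, Lef1, Tcf7, Nkd1, Nkd2, Sp5, Notum, Rnf43, Znrf3 and Lgr5. The genes were chosen by name, and no measured value entered the choice rule, but earlier results of these data were known at that time. Of the 45037 probe sets analysed, which covered 18193 genes, 19 carried the symbol of 9 of these 10 genes. A probe set is a group of short probes on the array that reads a stretch of a transcript. Tcf7 was not analysed here, since the annotation used paired no probe set with it.

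RNA of the whole neural retina from 10-week-old male mice was measured on 12 Affymetrix arrays, with 2 arrays for each of 6 groups. The groups in strain 129 (129X1/SvJJmsSlc) were explants cultured for 3 days with 15 µM CHIR99021, a small-molecule inhibitor of the kinase GSK3, vehicle explants cultured for the same 3 days, and normal retina that was never cultured. The same groups were made in strain B6 (C57BL/6NCrSlc). Per the study's methods, vehicle was 0.05% DMSO and explants also received EdU, a label of DNA synthesis, whereas the normal retina saw neither culture nor EdU. The methods also name a higher CHIR99021 concentration for explants, and the concentration given here is that of the labels. In the labels, replicate arrays are described as biological ones, but whether they came from separate animals was not stated, so p-values measure the spread between these samples.

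In the canonical pathway, Wnt ligands bind Frizzled and LRP receptors, a destruction complex built on Axin and APC stops marking β-catenin for degradation through GSK3, and β-catenin then reaches the nucleus and joins TCF/LEF factors. Inhibition of GSK3 acts below the receptors. Many of the genes raised in this way are themselves brakes on the pathway, which makes their transcripts common readouts of it. In the retina the pathway is known for its part in the growth of blood vessels, where Norrin (Ndp) acts through Frizzled receptors, and it has been studied in Müller glia after injury.

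Promoter windows reaching from 250 bases before to 50 bases after a start site (RefSeq, GRCm38.p6) covered 7 of the 10 genes in 12 windows, namely Axin2, Lef1, Nkd1, Nkd2, Rnf43, Sp5 and Tcf7. Notum, Znrf3 and Lgr5 had no window in the table. The TCF/LEF core TCAAAG, read on both strands (CTTTGA on the other), stood in 2 of the 12 windows, and the longer ATCAAAG, which contains the core, stood in 1. Of all 32851 windows in the table, 16% held TCAAAG and 3.73% held ATCAAAG. Sp5 had the core at 2 places, at bases 47 to 52 and 147 to 152 of its window, and the second was the longer form, starting 104 bases before the start site. Lef1 had the core at 2 places in 1 of its 4 windows, and the window of Nkd1 had no match, which says only that these letters are not in that stretch. The windows of Sp5 (chr2:70474673-70474972, plus strand), Lef1 (chr3:131156044-131156343, plus strand) and Nkd1 (chr8:88527383-88527682, plus strand) are shown because Sp5 and Nkd1 had the largest responses to CHIR99021 and Lef1 was the other gene with the core. Capitals mark the matches.
Sp5: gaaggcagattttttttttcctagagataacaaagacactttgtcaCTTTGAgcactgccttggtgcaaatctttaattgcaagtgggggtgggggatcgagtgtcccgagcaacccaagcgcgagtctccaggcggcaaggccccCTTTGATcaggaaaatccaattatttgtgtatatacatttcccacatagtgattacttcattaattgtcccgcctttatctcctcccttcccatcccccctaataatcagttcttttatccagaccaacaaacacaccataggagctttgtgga
Lef1: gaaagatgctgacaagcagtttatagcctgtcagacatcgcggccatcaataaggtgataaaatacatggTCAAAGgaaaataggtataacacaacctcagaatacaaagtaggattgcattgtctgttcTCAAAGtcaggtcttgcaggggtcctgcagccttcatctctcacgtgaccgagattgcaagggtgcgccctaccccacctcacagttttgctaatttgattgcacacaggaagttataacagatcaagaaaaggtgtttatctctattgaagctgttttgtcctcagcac
Nkd1: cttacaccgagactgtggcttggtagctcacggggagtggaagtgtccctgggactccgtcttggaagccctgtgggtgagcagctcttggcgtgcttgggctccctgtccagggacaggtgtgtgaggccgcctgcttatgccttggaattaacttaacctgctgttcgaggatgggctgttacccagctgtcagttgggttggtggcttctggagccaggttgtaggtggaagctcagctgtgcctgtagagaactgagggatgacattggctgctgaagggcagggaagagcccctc

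Values are given as log2 RMA values, so that a difference of 1 is a doubling of signal. The mean signals of the 19 probe sets ran between 3.45 for a Lef1 probe set and 8.59 for an Lgr5 probe set, and 5 of the 19 lay above 6.14, the median over all probe sets. Signals depend on the probes, so genes were not ranked by level. The 2 arrays of a group correlated at r = 0.9965 to 0.9978 over all probe sets. Transcripts that define rods, the main cell of the neural retina, lay at percentiles 97.6 to 100 of signal. The normal 129 array of replicate 2 stood apart in lens transcripts. Its summed linear signal over 8 lens genes was 25566, against 301 to 1062 in the other 11 arrays. Calls that rest on this array are given with and without it. The 1062 was that of normal 129 replicate 1, above all remaining arrays, of which the B6 CHIR99021 explants were highest (757 and 789). Leaving out replicate 2 thus does not remove all lens signal from normal 129 retina.

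Addition of CHIR99021 raised Nkd1 and Sp5 more than any other member in 129 explants, with smaller rises of Axin2 and Znrf3. No member was called lower. Of the 19 probe sets, 5 were called higher (limma, adjusted p under 0.05) and 0 lower in 129 CHIR99021 explants against 129 vehicle explants, where 5.87% of all probe sets were called higher and 6.38% lower. The 5 probe sets belonged to 4 genes. The median log2 difference of the 19 was 0.16, and that of all probe sets was 0.01. At an unadjusted p under 0.05, 9 of the 19 were higher and 1 was lower.

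In B6 explants the leading gene was again Nkd1, and Sp5, Znrf3 and Lef1 rose as well, while Lgr5 fell. Here 6 probe sets of 4 genes were called higher and 1 lower in B6 CHIR99021 explants against B6 vehicle explants, with 9.42% of all probe sets called higher and 9.18% lower. The median log2 difference of the 19 was 0.22, and that of all probe sets was 0.00. The arrays of CHIR99021 explants lay wholly above those of vehicle explants for 10 of the 19 probe sets in 129 and 12 in B6, and wholly below for 1 and 3. Over all probe sets the groups were apart in that way for 28.6% above and 27.5% below in 129, and for 29.3% above and 28.3% below in B6.

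**Figure D1:**
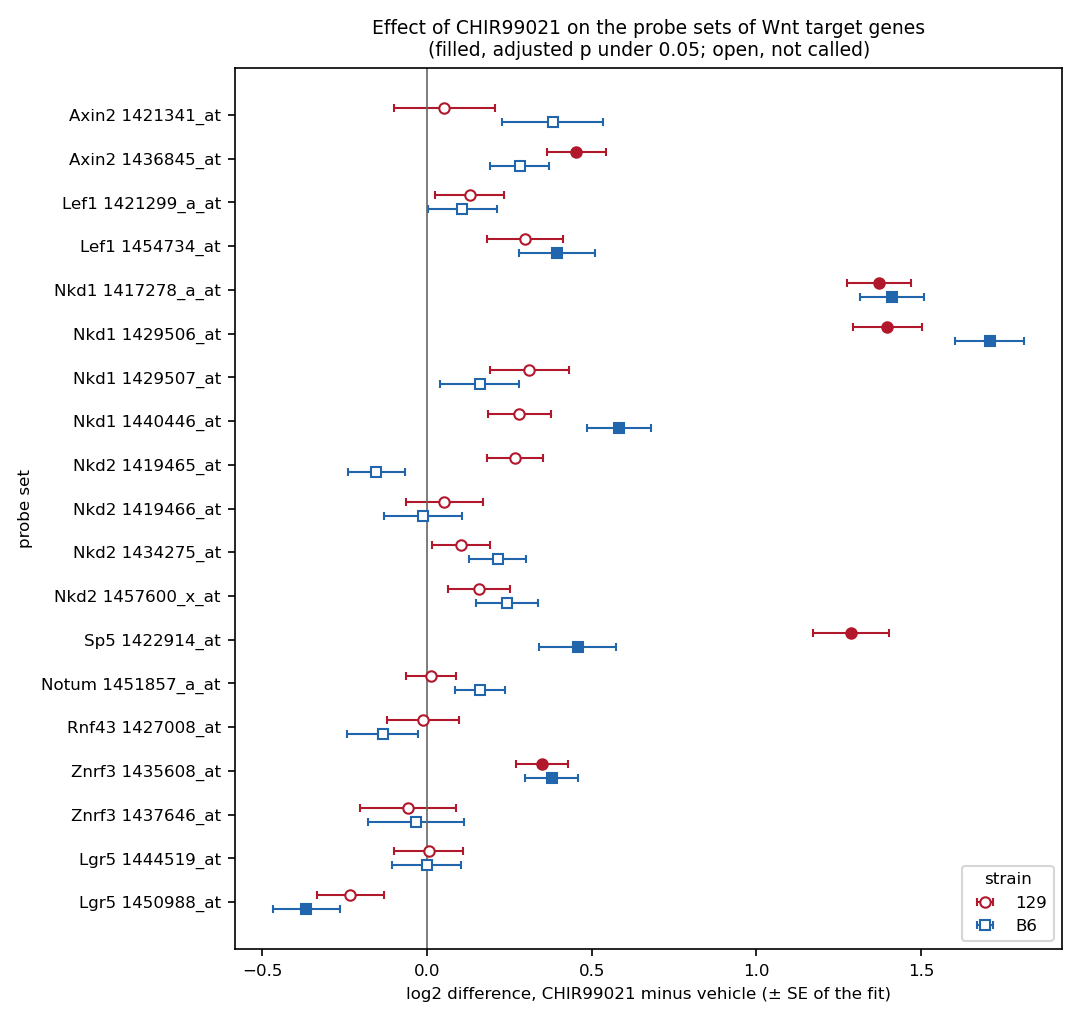
Log2 difference of CHIR99021 minus vehicle explants (horizontal axis, bars are the standard errors of the limma fit) for the 19 probe sets of 9 Wnt target genes, with 129 as circles above B6 as squares. Filled points were called at an adjusted p under 0.05, and the points far to the right are 2 probe sets of Nkd1 in both strains and Sp5 in 129.

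Nkd1 encodes a cytoplasmic protein that binds Dishevelled and restrains Wnt signaling, and it is a common feedback target of the pathway. Its probe set with the highest signal, 1429506_at, read 8.93 and 9.02 in 129 CHIR99021 explants, against 7.70 and 7.45 in 129 vehicle explants. The same probe set read 8.36 and 8.24 in B6 CHIR99021 explants, against 6.54 and 6.64 in B6 vehicle explants. The groups did not overlap in either strain. The log2 difference was 1.40 (SE 0.10, limma adjusted p = 2.8e-05), a 2.63-fold rise, in 129, and 1.71 (SE 0.10, limma adjusted p = 7.0e-06), a 3.27-fold rise, in B6. The difference between the strains' responses was -0.31 (95% interval -0.64 to 0.02, limma adjusted p = 0.368) and was not called.

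A second Nkd1 probe set, 1417278_a_at, read 7.21 and 7.55 in 129 CHIR99021 explants, against 6.01 in both 129 vehicle arrays. It read 7.44 and 7.40 in B6 CHIR99021 explants, against 6.01 in both B6 vehicle arrays, and 6.01 again in both B6 normal arrays. Vehicle explants and B6 normal retina thus sat at a shared low value on this probe set, and 129 normal retina lay just above it with 6.21 and 6.23. CHIR99021 explants lay above that value by 1.37 (limma adjusted p = 2.3e-05) in 129 and by 1.41 (limma adjusted p = 1.3e-05) in B6. Since all 4 vehicle arrays read the same low value, these are rises above it, and the sizes of the strains' responses were not compared on this probe set. Arrays at that value hardly differ from each other, which lowers the shared spread behind these p-values. The SD was 0.24 in 129 CHIR99021 explants. Both probe sets were called in both strains under all 18 alternatives tried, which included leaving out each array in turn.

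The other Nkd1 probe sets had weaker signals and smaller differences. On 1440446_at the values were 5.57 and 5.40 in B6 CHIR99021 explants, against 4.86 and 4.95 in B6 vehicle explants, a log2 difference of 0.58 (SE 0.10, limma adjusted p = 0.0022). In 129 they were 5.56 and 5.64 with CHIR99021, against 5.32 and 5.31 with vehicle, a difference of 0.28 that was not called (limma adjusted p = 0.0874), although the groups did not overlap. On 1429507_at the differences were 0.31 in 129 and 0.16 in B6, and neither was called. All 8 Nkd1 differences, 4 probe sets in 2 strains, were above 0.

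**Figure D2:**
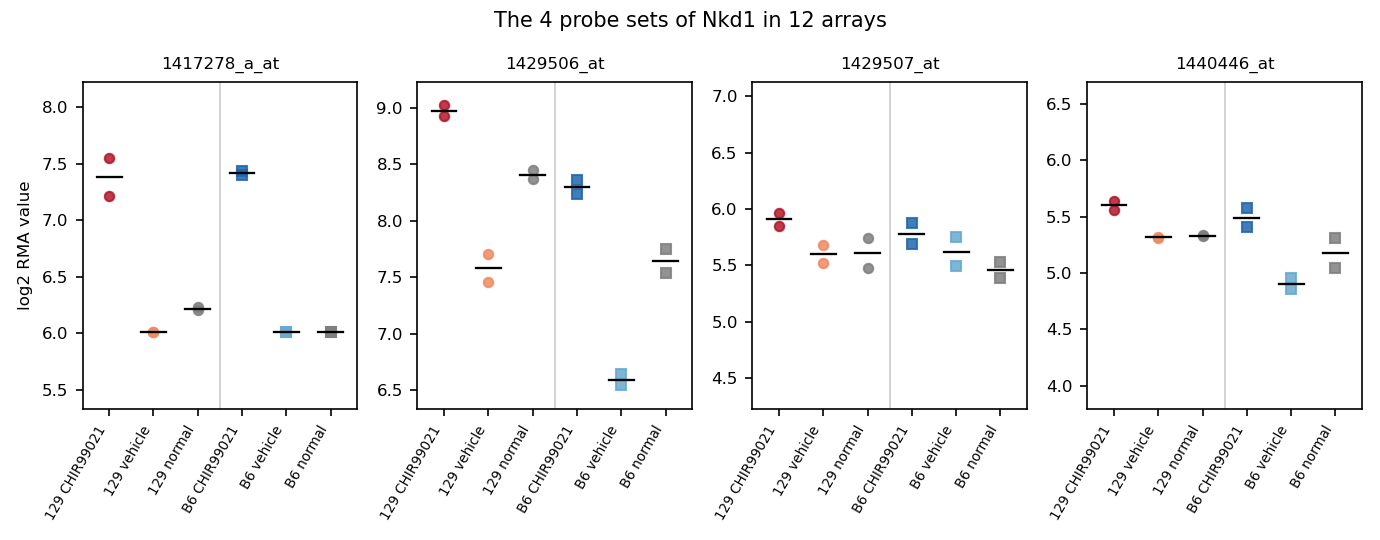
Log2 RMA values of the 4 probe sets of Nkd1 in 12 arrays, by strain and condition (points are arrays, lines are group means, and each panel spans the same range on its vertical axis). On 1429506_at each strain is lowest in vehicle explants and highest with CHIR99021, and on 1417278_a_at the vehicle explants and B6 normal retina all read 6.01.

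Sp5 encodes a zinc finger transcription factor of the Sp family that is a direct target of β-catenin in embryos and stem cells. It read 6.00 and 5.83 in 129 CHIR99021 explants, against 4.56 and 4.69 in 129 vehicle explants. In B6 it read 5.22 and 4.93 with CHIR99021, against 4.62 and 4.61 with vehicle. CHIR99021 explants were above vehicle explants in both strains, and both 129 CHIR99021 arrays lay above both B6 CHIR99021 arrays. The log2 difference was 1.29 (SE 0.12, limma adjusted p = 8.1e-05), a 2.44-fold rise, in 129, and 0.46 (SE 0.12, limma adjusted p = 0.0192), a 1.37-fold rise, in B6.

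The response of Sp5 differed between the strains by 0.83 (SE 0.16, 95% interval 0.47 to 1.19, limma adjusted p = 0.0357), larger in 129. It was the only 1 of the 19 probe sets with such a call, where 0.389% of all probe sets were called higher and 0.966% lower. The rise of Sp5 in 129 was called under all 17 alternatives. The rise in B6 lost its call without B6 CHIR99021 replicate 1 (0.31, adjusted p = 0.143), B6 vehicle replicate 1 (0.46, adjusted p = 0.0767) or B6 vehicle replicate 2 (0.45, adjusted p = 0.09). The strain difference of the response lost its call without any 1 of the 4 vehicle arrays, either 129 CHIR99021 array or B6 CHIR99021 replicate 2, with differences of 0.68 to 0.92 and limma adjusted p of 0.0593 to 0.138.

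Transcripts of dividing cells also had a larger response in 129 than in B6, but unlike Sp5 they were not called higher in B6. Of 9 proliferation genes measured, 8 rose with CHIR99021 in 129 and 0 in B6, where 5.87% and 9.42% of all probe sets were called higher. By the test of the difference, 5 had a larger response in 129, where 0.389% of all probe sets did. Their summed linear signal was 6737 and 8270 in 129 CHIR99021 explants, against 4665 to 4877 in 129 vehicle explants, and 3608 to 3846 in B6 CHIR99021 explants, against 3526 to 3622 in B6 vehicle explants. Their part in the result for Sp5 was not tested.

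Axin2 encodes a scaffold of the β-catenin destruction complex and is a widely used readout of the pathway. Its stronger probe set, 1436845_at, read 7.84 and 7.95 in 129 CHIR99021 explants, against 7.41 and 7.48 in 129 vehicle explants, and 7.90 and 7.94 in B6 CHIR99021 explants, against 7.63 and 7.64 in B6 vehicle explants. The groups did not overlap in either strain. The log2 difference in 129 was 0.45 (SE 0.09, limma adjusted p = 0.0085), a 1.37-fold rise. In B6 it was 0.28 (SE 0.09) with a limma adjusted p of 0.051, just short of the call, and the difference between the strains was 0.17 (95% interval -0.11 to 0.45, adjusted p = 0.583). The call in 129 was lost without 129 vehicle replicate 1 (0.42, adjusted p = 0.0631) or 129 CHIR99021 replicate 2 (0.39, adjusted p = 0.0667). The weaker probe set 1421341_at was called in neither strain. It overlapped in 129, and in B6 it read 4.17 and 4.37 with CHIR99021, wholly above the 4.01 and 3.77 with vehicle.

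Over the 12 arrays, the 5 genes whose probe sets followed 1436845_at of Axin2 most closely were Stx8, Reg3g, Slc41a3, Rundc3a and Ap3d1, with Pearson's r of 0.93, 0.93, 0.93, 0.91 and 0.90. This is a description over arrays that share the same 6 groups, chosen from all probe sets with 1 gene symbol. Among the members, r with Axin2 was highest for 1417278_a_at of Nkd1 (0.79) and for 1454734_at of Lef1 (0.68). On the former, the vehicle and B6 normal arrays shared a low value.

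Znrf3 and Rnf43 encode membrane ubiquitin ligases that remove Frizzled receptors from the cell surface. The stronger Znrf3 probe set, 1435608_at, read 8.30 and 8.33 in 129 CHIR99021 explants, against 7.94 and 7.99 in 129 vehicle explants. It read 8.22 and 8.29 in B6 CHIR99021 explants, against 7.87 and 7.88 in B6 vehicle explants. Arrays within a group were close to each other, and the log2 difference was 0.35 (SE 0.08, limma adjusted p = 0.0175) in 129 and 0.38 (SE 0.08, limma adjusted p = 0.0081) in B6, with a difference of -0.03 (95% interval -0.28 to 0.22). The call in 129 was lost without any 1 of its 4 explant arrays, namely vehicle replicate 1 (0.33, adjusted p = 0.0994) or 2 (0.37, adjusted p = 0.075) and CHIR99021 replicate 1 (0.36, adjusted p = 0.0734) or 2 (0.33, adjusted p = 0.0894). The call in B6 was lost without B6 CHIR99021 replicate 2 (0.34, adjusted p = 0.0575).

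The other Znrf3 probe set, 1437646_at, differed by -0.06 in 129 and -0.03 in B6 and was not called. Rnf43 had a weak signal of 3.44 to 4.17 over all arrays. It read 3.78 and 3.44 in 129 CHIR99021 explants, against 3.57 and 3.67 in 129 vehicle explants. In B6 it read 3.73 and 3.68 with CHIR99021, wholly below the 3.86 and 3.82 with vehicle, but was not called. Its log2 differences were -0.01 (95% interval -0.25 to 0.23) in 129 and -0.13 (95% interval -0.37 to 0.10) in B6.

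Lef1 encodes a DNA-binding partner of β-catenin that is also a target of the complex. Its weaker probe set, 1421299_a_at, was called in neither strain. There, B6 CHIR99021 explants read 3.47 and 3.46, wholly above the 3.35 and 3.37 of B6 vehicle explants, and the groups overlapped in 129. Its stronger probe set, 1454734_at, read 5.78 and 5.86 in B6 CHIR99021 explants, against 5.21 and 5.64 in B6 vehicle explants, and 5.78 in both 129 CHIR99021 arrays, against 5.50 and 5.46 in 129 vehicle explants. The B6 vehicle arrays were far apart, yet neither group overlapped its control. The log2 difference was 0.39 in B6 (SE 0.12, limma adjusted p = 0.0368) and 0.30 in 129 (SE 0.12, limma adjusted p = 0.127), and the strains differed by -0.10 (95% interval -0.46 to 0.26). The B6 value was 0.18 (adjusted p = 0.233) without B6 vehicle replicate 1 and 0.61 (adjusted p = 0.0032) without B6 vehicle replicate 2. The call was also lost without B6 CHIR99021 replicate 1 (0.43, adjusted p = 0.0878) or 2 (0.35, adjusted p = 0.16), without any 1 of the 4 129 explant arrays (0.39, adjusted p = 0.0519 to 0.0529) and when only the arrays compared were fitted (adjusted p = 0.123).

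Lgr5 encodes a receptor for R-spondins, secreted proteins that strengthen Wnt signaling, and marks stem cells of the gut. It was the only member called lower with CHIR99021, and only in B6. The probe set 1450988_at read 8.22 and 8.49 in B6 CHIR99021 explants, against 8.64 and 8.80 in B6 vehicle explants, and 8.30 and 8.43 in 129 CHIR99021 explants, against 8.57 and 8.62 in 129 vehicle explants. In both strains the CHIR99021 arrays lay below the vehicle arrays. The log2 difference was -0.37 in B6 (SE 0.10, limma adjusted p = 0.0287) and -0.23 in 129 (SE 0.10, limma adjusted p = 0.172), with a difference between strains of 0.13 (95% interval -0.18 to 0.45). The B6 call was lost without B6 vehicle replicate 2 (-0.29, adjusted p = 0.174) or B6 CHIR99021 replicate 1 (-0.23, adjusted p = 0.2), and when only the arrays compared were fitted (adjusted p = 0.0888). The other Lgr5 probe set, 1444519_at, differed by 0.01 in 129 and -0.00 in B6.

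Nkd2, a relative of Nkd1, and Notum, a secreted enzyme that inactivates Wnt proteins by removing their lipid, were not called in either strain. The strongest Nkd2 probe set, 1419465_at, read 5.63 and 5.49 in 129 CHIR99021 explants, against 5.21 and 5.37 in 129 vehicle explants, and 5.28 and 5.32 in B6 CHIR99021 explants, against 5.42 and 5.50 in B6 vehicle explants. The CHIR99021 arrays were thus above vehicle in 129 and below it in B6, with log2 differences of 0.27 (limma adjusted p = 0.0695) and -0.15 (limma adjusted p = 0.265), and the difference between strains, 0.42 (SE 0.12), had a limma adjusted p of 0.141. On 1419465_at the 129 difference was called with each array centred on housekeeping genes (0.29, limma adjusted p = 0.0458). The other 3 Nkd2 probe sets were not called in either strain and did not share this opposite movement. On 1434275_at the CHIR99021 arrays lay wholly above vehicle in B6 (4.31 and 4.38, against 4.11 and 4.15) and overlapped it in 129. On 1457600_x_at they lay wholly above vehicle in both strains, and on 1419466_at they overlapped it in both. Notum read 5.40 and 5.35 in 129 CHIR99021 explants, against 5.33 and 5.40 in 129 vehicle explants, and its difference was 0.01 (95% interval -0.16 to 0.18) in 129 and 0.16 (95% interval -0.01 to 0.33) in B6.

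**Figure D3:**
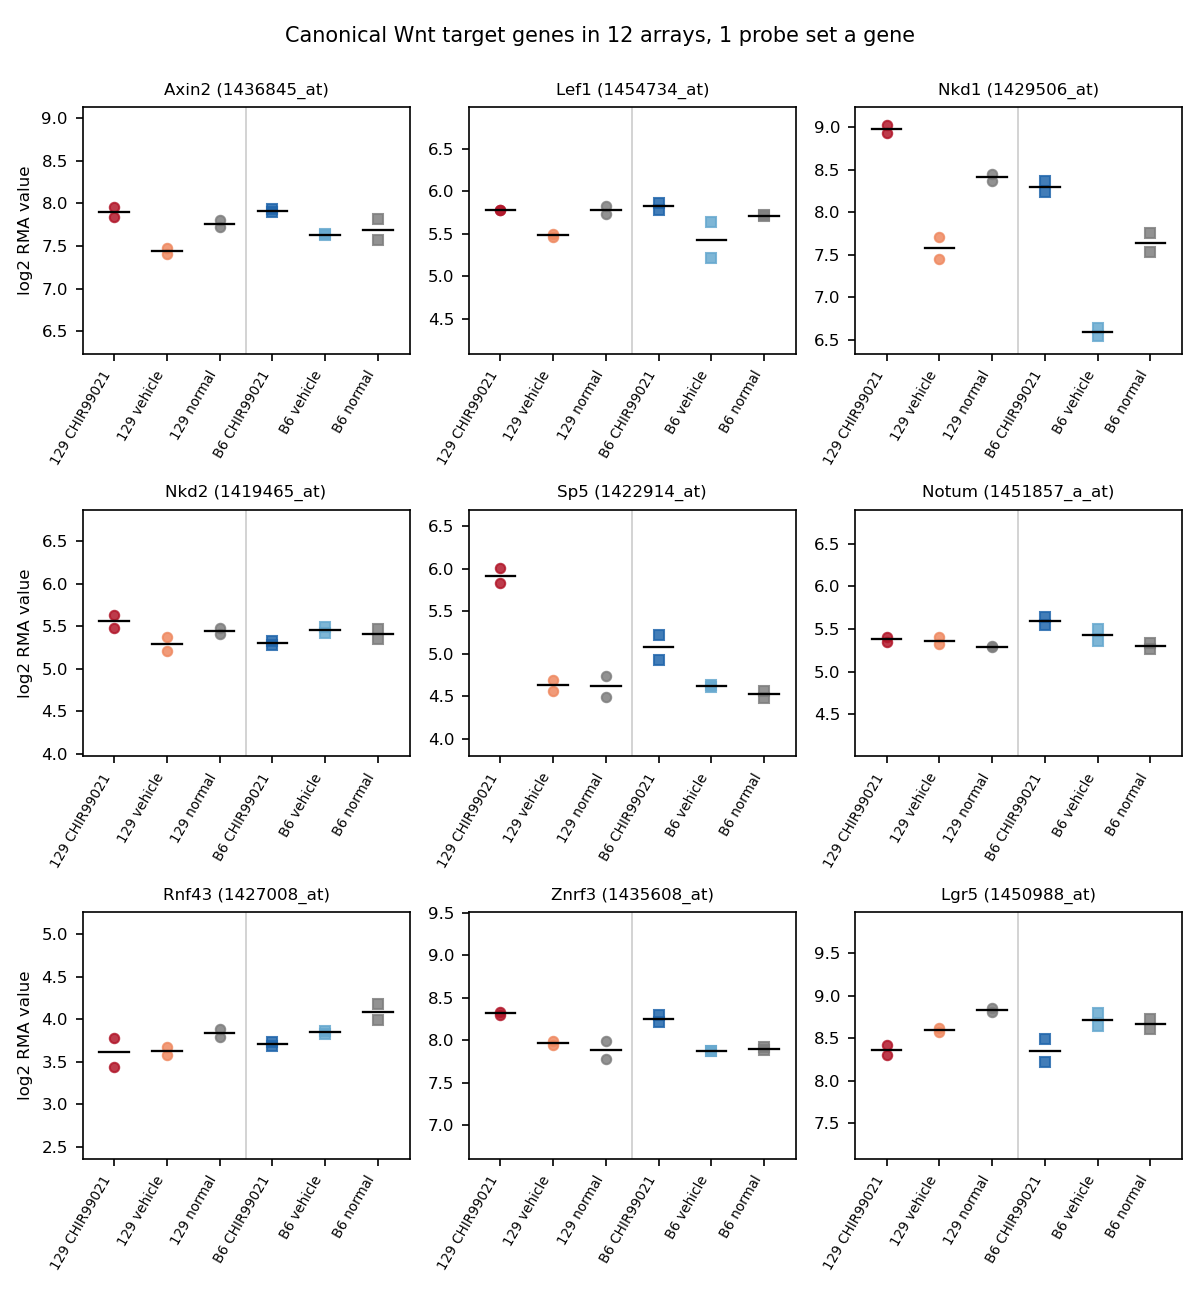
Log2 RMA values of the probe set with the highest mean signal for each of 9 Wnt target genes, by strain and condition (points are arrays, lines are group means, and every panel spans the same range on its vertical axis). Nkd1 and Sp5 move by more than 1 with CHIR99021 in 129 and Axin2, Znrf3 and Lef1 by less than 0.5, whereas Lgr5 is lower with CHIR99021 than with vehicle in both strains.

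By call, culture without the inhibitor lowered Nkd1 in both strains, on its probe set with the highest signal, and Axin2 in 129. Cell type transcripts differed too between vehicle explants and normal retina. All 7 rod markers were called lower in each strain. Of 12 microglia and macrophage markers, 9 were called higher in 129 and 10 in B6. Of 10 markers of pigmented epithelium and melanocytes, 8 were called lower in 129 and 9 in B6. These lists had no call in the other direction. The part of these shifts in the members' results was not tested. In 129 vehicle explants against 129 normal retina, 2 of the 19 probe sets were called lower and 0 higher, where 15.9% of all probe sets were called lower and 14.7% higher. In B6 vehicle explants against B6 normal retina, 1 was called lower and 1 higher, where 16.6% of all probe sets were lower and 14.9% higher. With only 19 probe sets, counts this small were not read as different from the background. The vehicle arrays lay wholly below the normal arrays for 11 of the 19 probe sets in 129 and for 7 in B6, and wholly above for 2 and 3, where 36.2% and 34.5% of all probe sets lay below and 29.1% and 29% above. Without the 129 normal array with lens transcripts, 1 probe set was called in 129, and the vehicle arrays lay below the remaining normal array for 15 of the 19 and above it for 3, where 46.2% of all probe sets lay below and 36.5% above. With each array centred on housekeeping genes, 11 of the 19 were called in 129 and 6 in B6. That centring shifted the median of all probe sets to -0.25 in 129 and -0.08 in B6. With only the arrays compared, 4 were called in 129 and 1 in B6. The shares of all probe sets called under these settings are not given here. The counts were therefore not read as particular to the members.

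On 1429506_at, Nkd1 read 7.70 and 7.45 in 129 vehicle explants, against 8.44 and 8.37 in 129 normal retina, and 6.54 and 6.64 in B6 vehicle explants, against 7.53 and 7.75 in B6 normal retina. The groups were well apart in both strains. The log2 difference was -0.83 (SE 0.10, limma adjusted p = 1.2e-04) in 129 and -1.05 (SE 0.10, limma adjusted p = 2.3e-05) in B6. Without the 129 normal array with lens transcripts the value in 129 was -0.87 (adjusted p = 0.001). The other 3 Nkd1 probe sets were not called in either strain, and 1 of them, 1417278_a_at, read its shared low value in all vehicle explants.

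Axin2 (1436845_at) read 7.41 and 7.48 in 129 vehicle explants, against 7.73 and 7.80 in 129 normal retina, a log2 difference of -0.32 (SE 0.09, limma adjusted p = 0.0182). The call was lost without 129 normal replicate 2, the array with lens transcripts (-0.29, adjusted p = 0.104), or 129 vehicle replicate 1 (-0.29, adjusted p = 0.107). In B6 the difference was -0.06 (95% interval -0.26 to 0.14), and B6 normal retina read 7.57 and 7.82, on both sides of the vehicle arrays. Znrf3 1437646_at read 5.06 and 4.55 in B6 vehicle explants, against 4.31 and 4.33 in B6 normal retina, a difference of 0.48 (limma adjusted p = 0.0277). That value was 0.23 (adjusted p = 0.236) without B6 vehicle replicate 1 and 0.73 (adjusted p = 0.0022) without B6 vehicle replicate 2, and its call was also lost without B6 normal replicate 1 (0.47, adjusted p = 0.0978) or 2 (0.49, adjusted p = 0.0869).

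By limma, 0 of the 19 probe sets had a change in culture called different between 129 and B6 (0 also at an unadjusted p under 0.05), where 2.58% of all probe sets did. The differences ranged from -0.28 to 0.26, and from -0.30 to 0.25 without the array with lens transcripts. Sp5 changed in culture by 0.01 in 129 (95% interval -0.24 to 0.27) and 0.10 in B6 (95% interval -0.16 to 0.35). Its vehicle explants and normal retina overlapped in 129 through the array with lens transcripts (4.49), while both vehicle arrays, 4.56 and 4.69, lay below the other normal array (4.74). Without that array the change in 129 was -0.11 (limma adjusted p = 0.615).

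Set beside normal retina, CHIR99021 explants lay above the level before culture for some members and below it for others. In 129, the CHIR99021 arrays lay wholly above the normal arrays for 11 of the 19 probe sets and wholly below for 3, where 32% of all probe sets lay above and 37.1% below. In B6 these counts were 10 and 3, where 31.1% lay above and 34.2% below. Set against 129 normal replicate 1 alone, without the array with lens transcripts, 12 probe sets lay above and 6 below in 129, where 38.8% of all probe sets lay above and 45.8% below. Nkd1 1429506_at read 8.93 and 9.02 in 129 CHIR99021 explants, above the 8.44 and 8.37 of 129 normal retina, and 8.36 and 8.24 in B6 CHIR99021 explants, above the 7.53 and 7.75 of B6 normal retina. Lef1 1454734_at with CHIR99021 overlapped normal retina in 129, and Lgr5 1450988_at lay below normal retina in both strains. These are positions of the arrays and were not tested. Cell type transcripts also differed between these groups. The summed linear signal of rod markers was 88814 to 89926 in 129 normal retina, against 29694 to 32956 in 129 CHIR99021 explants. In B6 it was 89488 to 91522 in normal retina, against 31089 to 31354 in CHIR99021 explants.

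Strain 129 had more Nkd1 signal than B6 in every condition, on 1429506_at. In normal retina the values were 8.44 and 8.37 in 129, against 7.53 and 7.75 in B6, a log2 difference of 0.77 (SE 0.10, limma adjusted p = 7.6e-04), and 0.80 (adjusted p = 0.0051) without the 129 array with lens transcripts. It was the 1 call among the 19 probe sets, where 11.5% of all probe sets were called, and 4 were called with each array centred on housekeeping genes. In vehicle explants the values were 7.70 and 7.45 in 129, against 6.54 and 6.64 in B6, a difference of 0.99 (limma adjusted p = 1.0e-04). In CHIR99021 explants they were 8.93 and 9.02 in 129, against 8.36 and 8.24 in B6, a difference of 0.68 (limma adjusted p = 0.0017). All 3 differences were called under all 18 alternatives. On 1417278_a_at the vehicle arrays of both strains shared 1 low value, so a strain difference could not show there. In normal retina this probe set read 6.21 and 6.23 in 129, against 6.01 in both B6 arrays, a difference of 0.21 that was not called (limma adjusted p = 0.216) and was called with each array centred on housekeeping genes (0.36, limma adjusted p = 0.025), which shifted the median of all probe sets to 0.16. In CHIR99021 explants its strain difference was -0.04 and was not called.

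In vehicle explants 2 of the 19 probe sets were called between strains, where 20% of all probe sets were. The other was Nkd1 1440446_at, with 5.32 and 5.31 in 129, against 4.86 and 4.95 in B6, a difference of 0.41 (limma adjusted p = 0.0121), whose call was lost without B6 vehicle replicate 1 (0.36, adjusted p = 0.0798) or 129 vehicle replicate 1 (0.41, adjusted p = 0.0613) or 2 (0.42, adjusted p = 0.0634). In CHIR99021 explants 2 were called, Nkd1 1429506_at and Sp5, where 10.9% of all probe sets were. Sp5 read 6.00 and 5.83 in 129 CHIR99021 explants, against 5.22 and 4.93 in B6 CHIR99021 explants, a difference of 0.84 (SE 0.12, limma adjusted p = 7.9e-04). Between 129 and B6, Sp5 differed by 0.01 in vehicle explants and by 0.10 in normal retina, or 0.22 (limma adjusted p = 0.399) without the array with lens transcripts, and neither was called. Axin2, Lef1, Znrf3, Lgr5, Nkd2, Notum and Rnf43 were not called between strains in any condition, with differences of -0.24 to 0.26, and of -0.20 to 0.23 in normal retina without the array with lens transcripts.

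The other genes of the pathway that rose most with CHIR99021 were Tnfrsf19 and Wnt7b in 129 and Fzd6 in B6, and Sostdc1 fell most in both strains. Over 6 lists with 94 genes, 6 rose and 6 fell in 129, which is 12.8%, where 12.2% of all probe sets were called. In B6, 5 rose and 8 fell, which is 13.8%, where 18.6% of all probe sets were called. Among 21 other reported targets, 3 rose and 1 fell in 129, and 2 rose and 0 fell in B6, or 4 rose in B6 with the probe sets of each gene averaged. Tnfrsf19, a receptor of the tumour necrosis factor family, read 6.01 and 5.83 in 129 CHIR99021 explants, against 4.99 and 4.75 in 129 vehicle explants, a log2 difference of 1.05 (limma adjusted p = 0.002). In B6 its difference was 0.27 (adjusted p = 0.288), the strains differed by 0.78 (adjusted p = 0.14), and its other 2 probe sets were not called. Nrcam, a neuronal adhesion molecule, rose by 0.48 in 129 and 0.70 in B6 (limma adjusted p = 0.0024 and 1.8e-04). Ccnd1 (cyclin D1) and Myc, which drive cell division, were not called, with differences of 0.02 and -0.13 in 129 and 0.22 and -0.09 in B6. Both were higher in vehicle explants than in normal retina, Ccnd1 by 2.73 in 129 and 1.34 in B6 (limma adjusted p = 8.3e-08 and 2.0e-05) and Myc by 2.10 in 129 and 0.93 in B6 (limma adjusted p = 5.7e-06 and 0.0021). Without the array with lens transcripts the values in 129 were 2.79 for Ccnd1 and 2.01 for Myc, both called. The other target called in B6 was Jun, a subunit of the transcription factor AP-1, which rose by 0.33 (limma adjusted p = 0.0253), a call lost without B6 vehicle replicate 1 (0.24) or either B6 CHIR99021 array (0.33 and 0.34). Ccnd1, Myc and Jun were picked after their values were seen.

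Of 24 ligands, 2 rose and 1 fell in 129, and 2 rose and 2 fell in B6, shares close to those of all probe sets. Wnt7b, a Wnt protein of the nervous system, read 7.94 and 8.12 in 129 CHIR99021 explants, against 7.04 and 6.97 in 129 vehicle explants, a difference of 1.02 (limma adjusted p = 8.9e-04). In B6 it read 7.61 and 7.72 with CHIR99021, against 6.97 and 7.11 with vehicle, a difference of 0.62 (limma adjusted p = 0.0092) that lost its call without B6 vehicle replicate 1 (0.55, adjusted p = 0.0673) or B6 CHIR99021 replicate 2 (0.56, adjusted p = 0.0614). A second Wnt7b probe set differed by 0.53 in 129 and 0.05 in B6. Wnt9a, another Wnt protein, fell in B6 (-0.77, limma adjusted p = 0.0014), where its other probe set differed by -0.06. Ndp moved in opposite directions, -0.30 in 129 and 0.31 in B6, and its strain difference, -0.61 (SE 0.11), had a limma adjusted p of 0.0235. That difference lost its call without any 1 of the 4 vehicle arrays, either 129 CHIR99021 array or B6 CHIR99021 replicate 1 (-0.63 to -0.57, adjusted p = 0.0596 to 0.0956).

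Of 14 receptors, 0 were called in 129 and 1, Fzd6, rose in B6. Fzd6 read 8.73 and 9.03 in B6 CHIR99021 explants, against 7.79 and 7.80 in B6 vehicle explants, a difference of 1.09 (limma adjusted p = 0.0046), and 0.45 on a second probe set (limma adjusted p = 0.0038), whereas the difference in 129 was 0.29 and that between strains, -0.80, had an adjusted p of 0.244. Of 11 extracellular inhibitors, 1 rose and 2 fell in 129, and 0 rose and 1 fell in B6. Sostdc1, a secreted antagonist of Wnt and BMP signaling, fell most, to 6.44 and 6.63 in 129 CHIR99021 explants, against 8.48 and 7.62 in 129 vehicle explants, and to 7.43 and 7.50 in B6 CHIR99021 explants, against 8.73 and 8.76 in B6 vehicle explants. Its differences were -1.52 and -1.28 (limma adjusted p = 0.0013 and 0.0022). Of 12 destruction complex and transducer genes, 0 rose while 2 fell in 129 and 3 in B6, and of 12 nuclear partners of β-catenin, 0 were called in 129 and 2 fell in B6. These last calls were small, between -0.52 and -0.24. With the probe sets of each gene averaged, 3 extracellular inhibitors rose and 1 fell in 129, and 4 rose and 1 fell in B6. Of the destruction complex and transducer genes, 0 were then called in 129, and 1 rose and 1 fell in B6. Averaging also gave 2 receptors that rose in B6. For nuclear partners it gave 1 that rose and 1 that fell in 129, and 3 that fell in B6.

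The remaining calls in these lists depended on single arrays. In 129, Met, a receptor tyrosine kinase, rose by 0.60 (limma adjusted p = 0.0261), and Ndp and Btrc, which marks β-catenin for degradation, both fell by 0.30 (limma adjusted p = 0.0278 and 0.0193). The calls of these 3 genes were lost without any 1 of the 4 129 explant arrays, with values of 0.50 to 0.70 for Met, -0.32 to -0.27 for Ndp and -0.33 to -0.26 for Btrc. The secreted matrix protein Ccn4 (-0.69, limma adjusted p = 0.0381) lost its call without any of those 4 arrays or either B6 vehicle array (-0.79 to -0.58). Wnt10a rose by 0.41 (limma adjusted p = 0.0073), a call lost without 129 vehicle replicate 1 (0.37) or 129 CHIR99021 replicate 2 (0.32). The Wnt-binding protein Sfrp2 rose by 0.48 (limma adjusted p = 0.0223), a call lost without 129 vehicle replicate 1 (0.29) or either 129 CHIR99021 array (0.50 and 0.45). Apc, a scaffold of the destruction complex, fell by 0.32 (limma adjusted p = 0.0136), a call lost without 129 vehicle replicate 2 (-0.28) or either 129 CHIR99021 array (-0.33 and -0.31). Dkk3, which is also in the list of Müller glia markers, fell by 0.35 (limma adjusted p = 0.0475), a call kept only without 129 CHIR99021 replicate 2, and its value was -0.18 without 129 CHIR99021 replicate 1 and -0.37 to -0.33 without the others.

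In B6, the calls of Wnt5a (-0.59, limma adjusted p = 0.0109), Apc2 (-0.32, limma adjusted p = 0.0295) and Ndp (0.31, limma adjusted p = 0.0167) were lost without either B6 vehicle array or B6 CHIR99021 replicate 1. Values were then -0.60 to -0.54 for Wnt5a, -0.36 to -0.24 for Apc2 and 0.27 to 0.32 for Ndp. Btrc fell by 0.25 (limma adjusted p = 0.03), a call lost without any 1 of the 4 B6 explant arrays (-0.28 to -0.22). Dvl1, which relays the signal from Frizzled, fell by 0.24 (limma adjusted p = 0.0456), a call kept only without a 129 CHIR99021 array (-0.27 to -0.21 without the others). Tle2, a corepressor, fell by 0.52 (limma adjusted p = 0.0117), a call lost without B6 vehicle replicate 2 (-0.48) or B6 CHIR99021 replicate 1 (-0.38). Bcl9, a partner of β-catenin, fell by 0.43 (limma adjusted p = 0.0337) and was -0.65 without B6 vehicle replicate 1, a value still called, whereas the call was lost without B6 vehicle replicate 2 (-0.20) or B6 CHIR99021 replicate 1 (-0.40) or 2 (-0.46).

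**Figure D4:**
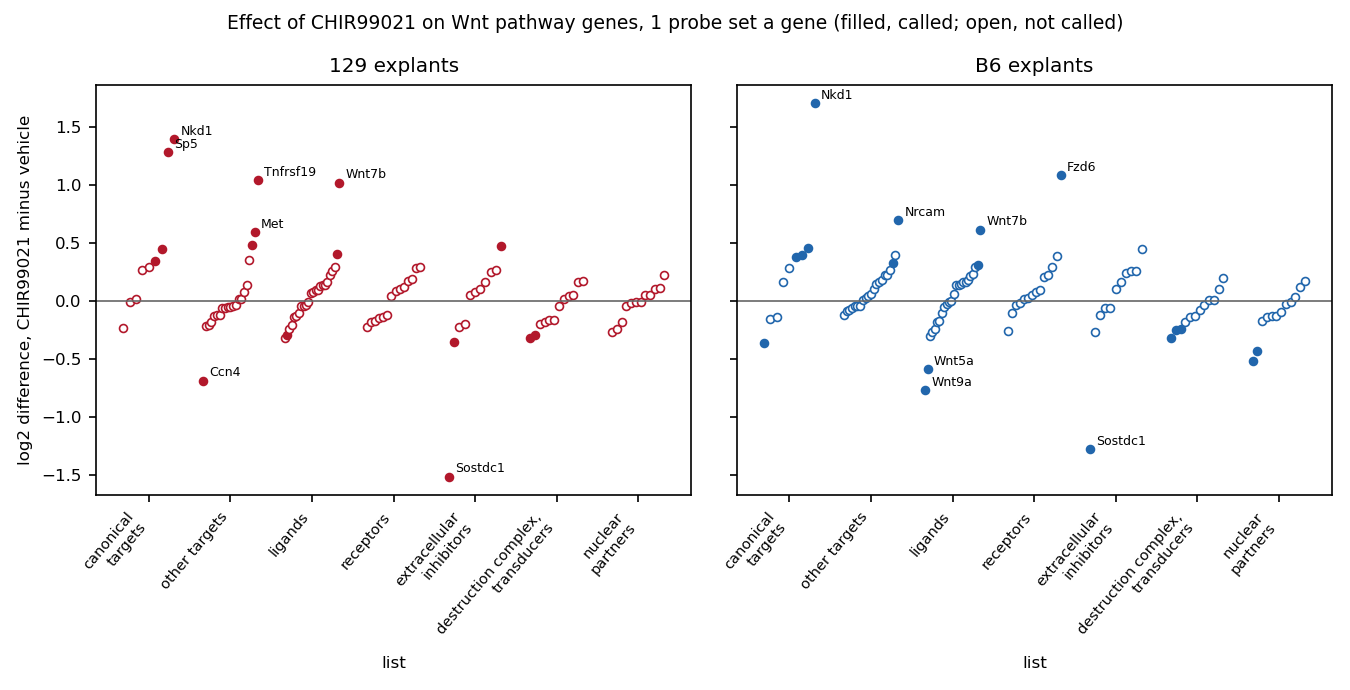
Log2 difference of CHIR99021 minus vehicle explants (vertical axis) for each gene of 7 lists, 1 probe set a gene, in 129 on the left and B6 on the right (filled, called at an adjusted p under 0.05). Nkd1 and Sp5 lead the canonical targets, Tnfrsf19 and Wnt7b stand out in 129, Fzd6 in B6, and Sostdc1 is lowest in both strains.

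Transcripts of several cell types moved with CHIR99021 beside the members. Over all probe sets, 5.87% were called higher and 6.38% lower in 129, and 9.42% higher and 9.18% lower in B6. Of 12 microglia and macrophage markers, 8 fell and 1 rose in 129 and 9 fell in B6, with summed linear signals of 1521 to 1533 in 129 CHIR99021 explants, against 2299 to 2436 in 129 vehicle explants, and 2545 to 2694 in B6 CHIR99021 explants, against 5732 to 6144 in B6 vehicle explants. Of 7 rod markers, 6 fell in 129 and 7 in B6, with sums of 29694 to 32956 in 129 CHIR99021 explants, against 40431 to 44189 in 129 vehicle explants, and 31089 to 31354 in B6 CHIR99021 explants, against 45577 to 47217 in B6 vehicle explants. Of 10 markers of endothelial cells, in which the pathway is known to act in the retina, 2 fell in each strain, Kdr and Flt1, or 1 with probe sets averaged. Of 8 Müller glia markers, 2 fell in each strain, but with probe sets averaged 1 fell in 129, and 3 rose and 1 fell in B6, and the list's median log2 difference was -0.18 in 129 and 0.14 in B6. Of 4 bipolar cell markers measured, 3 fell and 1 rose in 129, and 2 fell and 1 rose in B6, with sums of 6891 to 8056 in 129 CHIR99021 explants, against 10333 to 10507 in 129 vehicle explants, and 8478 to 8875 in B6 CHIR99021 explants, against 11322 to 12203 in B6 vehicle explants. Of 7 mural cell markers 3 fell in each strain. Of 6 amacrine cell markers 2 fell in 129 and 3 in B6, and of 6 ganglion cell markers 1 fell in 129 and 2 in B6. With probe sets averaged, 1 amacrine cell marker fell in 129, and 2 fell and 1 rose in B6. Of the ganglion cell markers, 3 then fell and 1 rose in 129. Of 7 T cell markers 1 rose in 129. Of 10 markers of pigmented epithelium and melanocytes 0 were called in either strain by limma (0 in 129 and 1 in B6 at an unadjusted p under 0.05). With probe sets averaged, 1 of these 10 fell in B6. In whole retina, fewer cells of a type and less RNA per cell cannot be told apart, and the part of these shifts in the members' results was not tested.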

How the data were processed

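RNA of 12 retinal samples was measured on Affymetrix whole-genome mouse expression arrays, 1 per sample, and groups were taken from the labels. The deposited values were normalized by the authors with RMA to linear intensity per probe set. For RMA the version was not given in the sources used here. RMA corrects background and equalises the distribution of values between arrays, so a shift shared by most genes cannot be seen. Median intensity per array was 68.8 to 70.7. The number of arrays, 2 per group, limits the precision.

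Intensities were turned into log2 values, 64 control probe sets of 45101 were left out, and limma 3.58.1 (R 4.3.3) was fitted to 6 group means over all 12 arrays with empirical Bayes moderation (prior degrees of freedom 4.69, residual 6). p-values were adjusted by Benjamini-Hochberg within each of 9 comparisons, and a probe set was called at an adjusted p under 0.05. The fit was tested on simulated data. Symbols came from the platform annotation, which gave 34945 probe sets 1 symbol and 932 several.

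Every member probe set was tested, counted and drawn, but values were not printed for each of them. From each other pathway list up to 4 genes were named, those with the largest absolute difference among the genes called with CHIR99021 in either strain, plus any called between strains. The probe set with the highest mean stood for a gene. Members and lists were chosen with earlier results of these data known.

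The alternatives were a replicate block, only the arrays compared, probe sets above the median signal, cyclic loess, centring on housekeeping genes, trended and robust moderation, averaged probe sets per gene, and omission of each array.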

Additional observations from a re-analysis of the deposited data

Results flagged for a closer look

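The response of Sp5 to CHIR99021 differed between the strains, larger in 129 than in B6 by 0.83 on the log2 scale (SE 0.16, limma adjusted p = 0.0357). The response of Ndp, which encodes Norrin, differed by -0.61 (SE 0.11, limma adjusted p = 0.0235), with 129 explants below and B6 explants above their vehicle. As given above, each call was lost without any single vehicle array, either 129 CHIR99021 array or a B6 CHIR99021 array.

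The change in culture, vehicle explants against normal retina, also differed between the strains for genes named beside the members. The difference was called above 0 for 1 of 24 ligands, Ndp, and for 4 of 21 other targets. Prox1, a transcription factor of the latter list, went the other way. Of all probe sets, 1.55% were called above 0 and 1.03% below. Ccnd1, Myc and Prox1 were picked after their values were seen. The difference was 1.15 for Ndp (SE 0.11, limma adjusted p = 4.9e-04), 1.30 for Met (SE 0.21, limma adjusted p = 0.0126), 1.39 for Ccnd1 (limma adjusted p = 0.0044), 1.17 for Myc (limma adjusted p = 0.0375) and 0.46 for Nrcam (SE 0.11, limma adjusted p = 0.0491). For Prox1 it was -0.84 (SE 0.18, limma adjusted p = 0.0368), with changes of -0.44 in 129 and 0.39 in B6, and its call was lost without any 1 of 9 arrays, all but B6 normal replicate 2 and the B6 CHIR99021 arrays (-0.89 to -0.61). The difference for Nrcam lost its call without any array except B6 vehicle replicate 1 (0.38 to 0.51), that for Myc without any array except B6 normal replicate 2 and the 129 CHIR99021 arrays (0.91 to 1.31), and that for Met without B6 vehicle replicate 2 (1.14) or 129 vehicle replicate 2 (1.32). Without the 129 normal array with lens transcripts, Ndp differed by 1.21, Met by 1.55 and Ccnd1 by 1.45, all still called by limma, and Nrcam by 0.51, Myc by 1.08 and Prox1 by -0.87, not called.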

How the results depend on the processing

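Over the omission of each array in turn, the number of the 19 probe sets called ran between 3 and 6 for CHIR99021 in 129, 4 and 8 for CHIR99021 in B6, 0 and 1 for the strain difference of that response, 1 and 4 for culture in 129, 1 and 3 for culture in B6, and 1 and 2 between strains in vehicle explants. With only the arrays compared, 4 were called for culture in 129 and 1 in B6. Centring on housekeeping genes gave 11 for culture in 129, 6 for culture in B6 and 4 between strains in normal retina. It shifted the median of all probe sets to -0.25, -0.08 and 0.16 in these comparisons. The shares of all probe sets called under each alternative are not given here, so the counts were not read as particular to the members. Among probe sets above the median signal, 0 were called for the strain difference of the response, 1 for culture in B6, 1 between strains in vehicle explants and 1 in CHIR99021 explants, fewer members being tested there. No member value that was called changed sign under an alternative.

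With the replicate block, 5 probe sets were called for CHIR99021 in 129, as without it, and the 1 member call it changed was Axin2 1436845_at in B6 (0.28, limma adjusted p = 0.0361). Deviations of equal replicate numbers correlated at -0.107 to 0.044 over all probe sets, so no pairing showed. Whether equal numbers share an animal or a day was not stated. Axin2 in B6 was also called among probe sets above the median signal (0.0201), with housekeeping centring (0.0472) and with trended, robust moderation (0.0296, each a limma adjusted p).

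Of the 19 probe sets, 14 had a mean signal below the median of all probe sets, which limits what they can show.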
